A study of Mus musculus with 6 samples.

Results

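The renin-angiotensin system genes of the mouse kidney comprised 9 genes here, namely Ren1, Agt, Ace, Mme, Enpep, Agtr1a, Agtr1b, Mas1 and Atp6ap2. They were found by gene name among the non-control probes of the array, which gave 15 probes of 56605. Testing required a signal well above background on every array of 1 group or both. Of the 15 probes, 12 passed, which stood for 8 of the 9 genes. The 3 probes that did not pass were both probes of Agtr1b and the second probe of Mas1.

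The arrays hold 6 samples of renal cortex from male mice aged 16 weeks, 1 mouse to a one-colour array. The labels gave 3 arrays the genotype db/m and the source "control", and 3 arrays the genotype db/db and the source "model". The paper's methods and the design text name the compared mice otherwise, as db/db mice treated with HQD and untreated db/db mice, so the groups are called labelled db/m and labelled db/db throughout. A treatment with HQD of 8 weeks was stated with every sample of both groups, and the dose given to the mice on the arrays was not named. HQD is Huangqi decoction, a mixture of herbs given by mouth. Mice homozygous for the db mutation lack a working leptin receptor and become obese and diabetic, on the C57BLKS/J strain background that all mice shared. The mutation acts in the whole animal, and the cortex holds tubules, glomeruli and vessels together. A lower value of a gene in such tissue cannot tell fewer cells of a type from less RNA per cell.

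The system begins with renin, a protease that juxtaglomerular cells in the wall of the afferent arteriole release and that cleaves angiotensin I from angiotensinogen. Angiotensin-converting enzyme turns angiotensin I into angiotensin II, which acts through the AT1 receptor to constrict vessels, retain sodium and restrain renin release. Neprilysin and aminopeptidase A, on the brush border of the proximal tubule, break the angiotensin peptides down further. The Mas receptor binds a shorter angiotensin peptide with effects opposed to those of the AT1 receptor. Inhibitors of the converting enzyme and blockers of the AT1 receptor are standard drugs in diabetic kidney disease.

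The Ren1 signal came from a single probe, shown here because the widest difference among the members rests on it. It lies in coding sequence of Ren1 on the plus strand at chr1:135250782-135250841 of mm9, the build of the scanner files. Beside it stand the 100 bases before the Ren1 start in RefSeq (GRCm38.p6, chr1:133350574-133350673, plus strand), where capitals mark the TATA box letters TATAAA.
Ren1 probe: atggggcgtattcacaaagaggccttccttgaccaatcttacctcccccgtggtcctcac
Ren1 upstream: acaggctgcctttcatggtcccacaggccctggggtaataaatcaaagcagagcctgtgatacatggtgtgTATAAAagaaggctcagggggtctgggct
Read on both strands of the 100 bases before every start in that table, TATAAA occurred in 1827 of 32851 windows (5.56%), and in Ren1 its first base was at position -29. Of the 8 members with a window, Ace, Agt, Agtr1b and Enpep held it as well. A match describes letters and not a bound site.

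Values are log2 intensities relative to the 75th percentile of their array, and a difference below 0 means a lower value in labelled db/m than in labelled db/db. Where several probes of a gene were tested, the brightest stands for the gene. Ren1, Ace and Mas1 were lower in labelled db/m and Mme was higher, each at an unadjusted limma p under 0.05. Thus 3 of 8 members were lower at that level, against 10.8% of all 29890 probes tested and 9.43% of 16675 genes by their brightest probe. In the other direction 1 of 8 members stood, against 6.9% of the probes and 6.19% of the genes. The groups did not overlap for 3 of the 8, against 24.1% of the probes. Without a test, 7 of the 8 were lower, as were 53.5% of all probes tested and 54.8% of the genes. That count was 3 of 8 when each array was instead scaled to the mean of 15 proximal tubule markers, a scale chosen after the data were seen. Such scaling moves the difference of every probe by the same amount. The median difference of the 8 members was -0.22, against -0.027 over all probes tested, and on the proximal tubule scale 0.14 against 0.32.

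After Benjamini-Hochberg adjustment over all 29890 probes, no member passed. Neither did any other probe by limma (0%), with 5282 probes at an unadjusted p under 0.05 and a lowest adjusted p of 0.0579, nor by the methods' t-test, which had 4617 at the unadjusted level. The members are therefore described by their values, their standard errors (SE) and the background shares. An exact permutation test on a single gene cannot go below a two-sided p of 0.1 with 3 mice against 3.

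**Figure D1:**
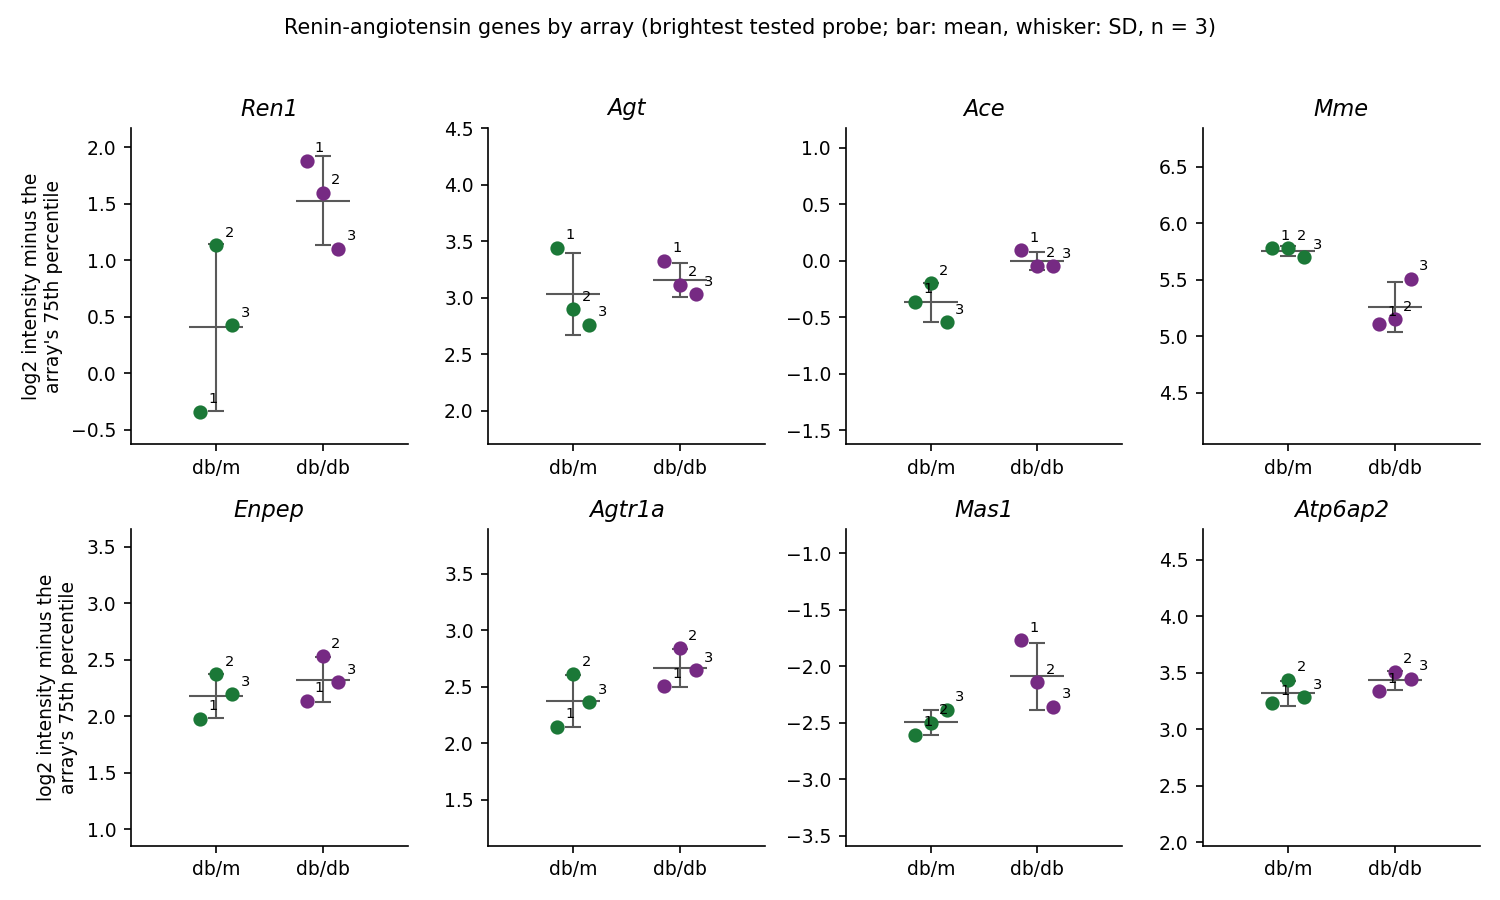
Value of each member on each of the 6 arrays (y axis, log2 intensity minus the 75th percentile of the array; brightest tested probe), by labelled group, with the replicate number beside each point, a bar at the mean and a whisker of 1 SD (n = 3). The panels share one span, so that Ren1 shows the widest spread, Ace, Mas1 and Mme show groups that do not overlap, and Agt, Enpep, Agtr1a and Atp6ap2 show groups that do.

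Ren1 encodes renin, the enzyme that limits the rate of the whole cascade. Its probe read -0.34, 1.13 and 0.43 in the mice labelled db/m (replicates 1, 2 and 3) and 1.88, 1.60 and 1.104 in those labelled db/db. The values were low in labelled db/m replicates 1 and 3 and high in labelled db/db replicates 1 and 2, and replicate 2 of labelled db/m lay just above replicate 3 of labelled db/db, so that the groups overlapped. The means were 0.41 ± 0.74 and 1.53 ± 0.39 (SD, n = 3 each). The difference of -1.12 (SE 0.38, 95% interval -2.03 to -0.21) corresponds to a 2.18-fold higher level in labelled db/db. Its limma p was 0.0229 (adjusted p = 0.246), and the exact permutation test gave p = 0.2. A difference of at least 1 on this scale with an unadjusted p under 0.05 was seen in 0.96% of the probes tested. Labelled db/m replicate 1, the lowest of the 6, carried part of the size, since the difference without it was -0.75 (adjusted p = 0.354 by limma, unadjusted p still under 0.05). The unadjusted limma p was over 0.05 without replicate 3 of labelled db/m or replicate 1 or 2 of labelled db/db. There the difference was -1.13, -0.94 and -1.09.

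The arrays came from 3 slides, each scanned once, and the first held replicate 1 of labelled db/m beside replicate 3 of labelled db/db. The second held the other arrays labelled db/m and the third the other arrays labelled db/db, so that slide and group can be told apart on the first slide alone. There Ren1 differed by -1.44, which is also its value with slide as a block (adjusted p = 0.483 by limma, unadjusted p under 0.05).

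The array also holds 1 probe named Ren2, the near-identical second renin gene that some mouse strains carry beside Ren1. The scanner files give that probe no position on mm9, whose reference strain carries Ren1 alone. It was above background on all 6 arrays and read 3.81, 5.37 and 4.69 in labelled db/m and 5.79, 5.57 and 5.17 in labelled db/db. Its order over the arrays was that of Ren1, with replicate 2 of labelled db/m again above replicate 3 of labelled db/db. The difference was -0.89 (SE 0.39, adjusted p = 0.29 by limma, unadjusted p over 0.05), a 1.86-fold higher level in labelled db/db, and -1.37 with slide as a block. The 2 probes share no run of 16 bases or more, and how far each reads transcripts of the other gene was not tested. The renin signal is thus uncertain as to which of the genes gave it.

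Akr1b7, an aldo-keto reductase known to be co-expressed with renin in juxtaglomerular cells, was the marker of renin cells beside Ren1. It read -1.18, -0.32 and -0.88 in labelled db/m and 0.15, -0.27 and -0.39 in labelled db/db. As for Ren1, labelled db/m replicates 1 and 3 were the lowest and labelled db/m replicate 2 lay among the mice labelled db/db. The difference was -0.62 (SE 0.25, adjusted p = 0.273 by limma) and passed an unadjusted p of 0.05 in 9 of 18 alternative settings. Over the 6 arrays Pearson's r was 0.98 between Ren1 and Akr1b7 and 0.99 between Ren1 and Ren2, a description in which the points share their groups, slides and scale. Of the markers of smooth muscle and pericytes, cells that share a lineage with renin cells, 0 of 9 had an unadjusted limma p under 0.05 (median -0.19). With slide as a block 4 of 9 were lower at that level (median -0.61), against 5.16% of all probes in that setting. Without labelled db/m replicate 1 the median was 0.13. Their mean over the list spanned 0.79 to 1.62 in labelled db/m and 1.35 to 1.53 in labelled db/db.

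The tested probes most like Ren1 over the 6 arrays were those of Tfeb (r = 0.995), Dnajc14 (r = 0.994) and Ell2 (r = 0.994), and 1585 probes reached r of 0.9 or more. Those most like Agt were Cks1b, Gmds and Mast1 (r = 0.99 each), with 249 probes at 0.9 or more. With 6 arrays such counts describe how few points set the pattern.

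Agt encodes angiotensinogen, the only substrate of renin, which the liver supplies to blood and the proximal tubule makes locally. Its probe (chr8:127080661-127080720, minus strand, mm9 as for all members) read 3.44, 2.90 and 2.76 in labelled db/m and 3.33, 3.12 and 3.03 in labelled db/db. Labelled db/m held both the highest and the lowest values, and the groups overlapped. The difference was -0.12 (SE 0.20, 95% interval -0.60 to 0.35, adjusted p = 0.735 by limma). On the first slide it was 0.41, and without labelled db/m replicate 3 it was 0.0115, so that Agt had no settled direction. Substrate and enzyme did not run together over the arrays (r = -0.084 between Ren1 and Agt).

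Ace encodes angiotensin-converting enzyme, found on vascular endothelium and on the proximal tubule brush border. Its probe (chr11:105850398-105850457, plus strand) read -0.36, -0.20 and -0.54 in labelled db/m and 0.094, -0.043 and -0.047 in labelled db/db. Every mouse labelled db/m was below every mouse labelled db/db, as was the case for 16.4% of all probes tested. The difference was -0.37 (SE 0.13, 95% interval -0.67 to -0.07), a 1.29-fold higher level in labelled db/db, with p = 0.0229 and adjusted p = 0.246 by limma and an exact permutation p of 0.1. It was -0.31 on the first slide (adjusted p = 0.636 with slide as a block, by limma). The unadjusted p was over 0.05 with that block and without replicate 1 or 3 of labelled db/m or replicate 1 of labelled db/db, where the difference was -0.37, -0.28 and -0.32.

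Mme encodes neprilysin, which cleaves angiotensin I to the peptide that the Mas receptor binds, and many other peptides besides. Its brightest probe read 5.78, 5.78 and 5.70 in labelled db/m and 5.10, 5.15 and 5.51 in labelled db/db. All 3 mice labelled db/m stood above all 3 labelled db/db, as for 7.75% of all probes tested, and labelled db/db replicate 3 was the nearest to them. The difference was 0.50 (SE 0.14, 95% interval 0.17 to 0.82, p = 0.00902, adjusted p = 0.24 by limma; exact permutation p = 0.1). On the first slide it was 0.27 (adjusted p = 0.599 with slide as a block, by limma), and with arrays centred on their median it was 0.31 (adjusted p = 0.313 by limma), both with an unadjusted p over 0.05.

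The groups overlapped on each of the other 3 probes of Mme. The probe A_65_P20281, on the plus strand of chr3 (mm9, 63187228 to 63187287) before the brightest one (63188148 to 63188625), read 2.06, 1.52 and 1.43 in labelled db/m and 1.78, 1.75 and 1.70 in labelled db/db. Its values overlapped, with a difference of -0.077 (SE 0.18, 95% interval -0.50 to 0.35). The probe A_66_P113268 differed by -0.051 (SE 0.18) and the probe A_55_P2731961 by 0.25 (SE 0.26), with a 95% interval of -0.36 to 0.86 for the latter. With slide as a block, which rests on the first slide, all 4 probes were higher in labelled db/m, by 0.27 for the brightest and by 0.36, 0.43 and 0.58 for the others in the order given, none with an unadjusted limma p under 0.05. Over the 6 arrays A_65_P20281 and A_66_P113268 ran together (r = 0.98), whereas the brightest probe ran with neither of them (r = -0.16 each).

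The brightest Mme probe also shared runs of at least 16 bases with 4 probes of other genes, while the other 3 Mme probes shared none. Of the 4, the probe named Oxsm, a mitochondrial fatty acid synthesis gene, is described for its values, which were seen first. The stretch it holds on the same strand as the Mme probe, and the one held by the Tdrd5 probe, are shown so that their overlap can be read.
Oxsm and Mme: atagcattggaaatgtaa
Tdrd5 and Mme: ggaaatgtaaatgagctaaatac
The Oxsm probe read 4.77, 4.70 and 4.45 in labelled db/m and 3.37, 3.32 and 4.58 in labelled db/db. It was high in all mice labelled db/m and in labelled db/db replicate 3 and low in the other mice labelled db/db, with a difference of 0.88 (SE 0.34, adjusted p = 0.266 by limma) and r = 0.96 with the brightest Mme probe. The low arrays were those of the third slide. On the first slide, which held both groups, Oxsm read 4.77 in labelled db/m replicate 1 and 4.58 in labelled db/db replicate 3. The Tdrd5 probe, with 23 shared bases on the same strand, differed by 0.11 (SE 0.19). The Zfp457 and Pam probes share their 41 and 18 bases on the opposite strand. They differed by -0.073 and -0.013 (SE 0.12 and 0.14). Whether the brightest Mme probe reads RNA other than that of Mme was not tested.

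**Figure D2:**
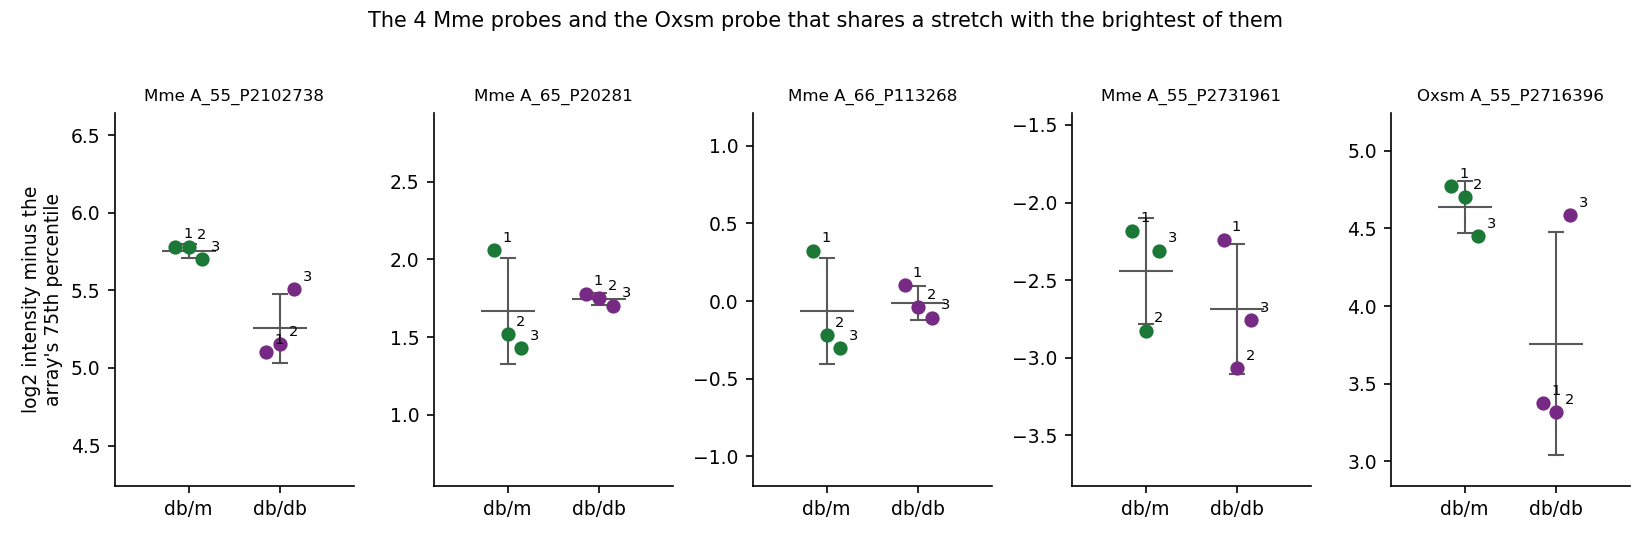
Values of the 4 Mme probes and of the Oxsm probe on each array (y axis, log2 intensity minus the 75th percentile of the array), by labelled group, with the replicate number beside each point, a bar at the mean and a whisker of 1 SD (n = 3). The brightest Mme probe (leftmost) and the Oxsm probe (rightmost) are lowest in labelled db/db replicates 1 and 2, the arrays of the third slide, whereas the 3 Mme probes between them overlap in both groups.

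Enpep encodes aminopeptidase A, which turns angiotensin II into angiotensin III. Its brightest probe (chr3:128972910-128972969, minus strand) read 1.98, 2.37 and 2.19 in labelled db/m and 2.14, 2.53 and 2.31 in labelled db/db. The groups interleaved, with a difference of -0.14 (SE 0.16, 95% interval -0.51 to 0.23, adjusted p = 0.614 by limma). The second Enpep probe differed by -0.043 (SE 0.26).

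Agtr1a encodes the main AT1 receptor of the kidney. Its probe (chr13:30474638-30474697, plus strand) read 2.15, 2.61 and 2.36 in labelled db/m and 2.50, 2.84 and 2.64 in labelled db/db. Labelled db/m replicate 2 lay between labelled db/db replicates 1 and 3, and the difference was -0.29 (SE 0.16, 95% interval -0.67 to 0.09, adjusted p = 0.36 by limma, unadjusted p over 0.05). Without labelled db/m replicate 2 it was -0.41, and with median centring -0.47, both with an unadjusted limma p under 0.05.

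Agtr1b encodes the second AT1 receptor of rodents, known mainly from the adrenal gland and pituitary. One of its probes was above background on labelled db/m replicate 3 alone, where it read an intensity of 116.1 against 37.1 or less on the other arrays, and the other probe was above background on none. Of the adrenal markers, Cyp11b1 and Cyp11b2 were above background on no array and Cyp11a1 on 1, while Hsd3b1, Star and Cyp21a1 were above it on all 6. No difference is given for Agtr1b.

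Mas1 encodes the Mas receptor. Its brighter probe (chr17:13033943-13034002, minus strand) read -2.61, -2.50 and -2.39 in labelled db/m and -1.77, -2.14 and -2.36 in labelled db/db. The groups did not overlap, but replicates 3 of both groups were nearly level. The difference was -0.41 (SE 0.17, p = 0.0483, adjusted p = 0.281 by limma; exact permutation p = 0.1). Its unadjusted p stayed under 0.05 in 7 of 18 alternative settings, and without labelled db/db replicate 1 the difference was -0.25 (adjusted p = 0.495 by limma). The probe was dim, with intensities from 135.2 to 264.3, and the second Mas1 probe was above background on no array.

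Atp6ap2 encodes the prorenin receptor, which is also an accessory subunit of the vacuolar proton pump. Its probe (chrX:12193624-12193683, plus strand) read 3.23, 3.44 and 3.28 in labelled db/m and 3.34, 3.51 and 3.45 in labelled db/db. Labelled db/m replicate 2 stood among the mice labelled db/db, and the difference was -0.11 (SE 0.11, 95% interval -0.38 to 0.15, adjusted p = 0.579 by limma).

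**Figure D3:**
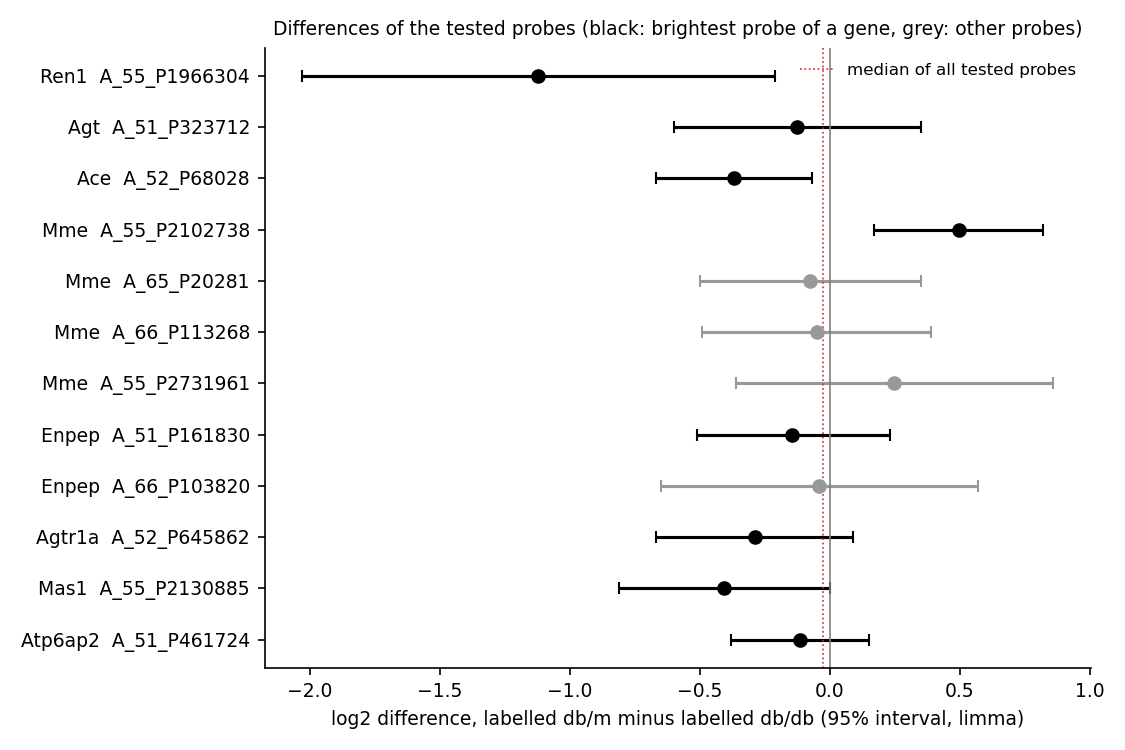
Difference between the groups for each of the 12 tested member probes (x axis, log2, labelled db/m minus labelled db/db), with 95% limma intervals, black for the brightest probe of a gene and grey for other probes, and a dotted line at the median of all tested probes (-0.027). The intervals of Ren1, Ace and the brightest Mme probe leave out 0, that of Mas1 ends near it, and the other 3 Mme probes lie around 0.

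Agtr1a, Enpep and Atp6ap2, none of which passed an unadjusted p of 0.05, ran together over the arrays. Pearson's r was 0.98 between Agtr1a and Atp6ap2, 0.95 between Agtr1a and Enpep and 0.94 between Enpep and Atp6ap2 (6 arrays). All 3 also ran with the mean of the 15 proximal tubule markers, with r of 0.95, 0.89 and 0.93 for Agtr1a, Enpep and Atp6ap2. With the mean of 6 podocyte markers their r was 0.83, 0.90 and 0.84. Ren1 had r of 0.84 with the proximal tubule mean as well. For Ace, Mas1, Agt and Mme that r was 0.60, 0.38, -0.45 and -0.46. The proximal tubule markers are genes such as Lrp2, Slc34a1 and Slc22a6, and all 15 were tested. Their mean was 6.02, 6.90 and 6.45 in labelled db/m and 6.66, 6.92 and 6.84 in labelled db/db. It was lowest in labelled db/m replicates 1 and 3. All 15 were lower in labelled db/m, as were 54.8% of all genes (median -0.30). At an unadjusted limma p under 0.05 stood 2 of the 15, against 9.43% of all genes: Slc7a7 (-0.77, SE 0.25) and Slc22a8 (-0.56, SE 0.21). That count was 7 with slide as a block (median -0.71), 9 with median centring, 11 without labelled db/m replicate 2 (median -0.52) and 1 with quantile normalization (median -0.19). In those settings, in that order, 5.16%, 19.3%, 13.7% and 10.5% of all probes tested were lower at that level.

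On the scale set by the mean of the proximal tubule markers, Ren1 read 0.27, 0.86 and 0.61 in labelled db/m and 1.85, 1.31 and 0.89 in labelled db/db, groups that did not overlap, with a difference of -0.77 (SE 0.33, adjusted p = 0.287 by limma, unadjusted p under 0.05). The brightest Mme probe differed by 0.85 (SE 0.32, adjusted p = 0.234 by limma, unadjusted p under 0.05) on that scale. There 14.2% of all probes tested were higher and 0.174% were lower at an unadjusted limma p under 0.05. Ace and Mas1 differed by -0.017 (SE 0.32) and -0.056 (SE 0.33), and their groups overlapped. Both stayed below the median of all probes on that scale, 0.32. Because the scale moves the difference of every probe by the same amount, these shifts are not particular to a gene. Agtr1a, Enpep, Atp6ap2 and Agt differed by 0.0645, 0.21, 0.24 and 0.23 (SE 0.30 to 0.36), with groups that overlapped, below the median of 0.32 over all probes on that scale. The part that the proximal tubule markers have in each difference was not tested.

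**Figure D4:**
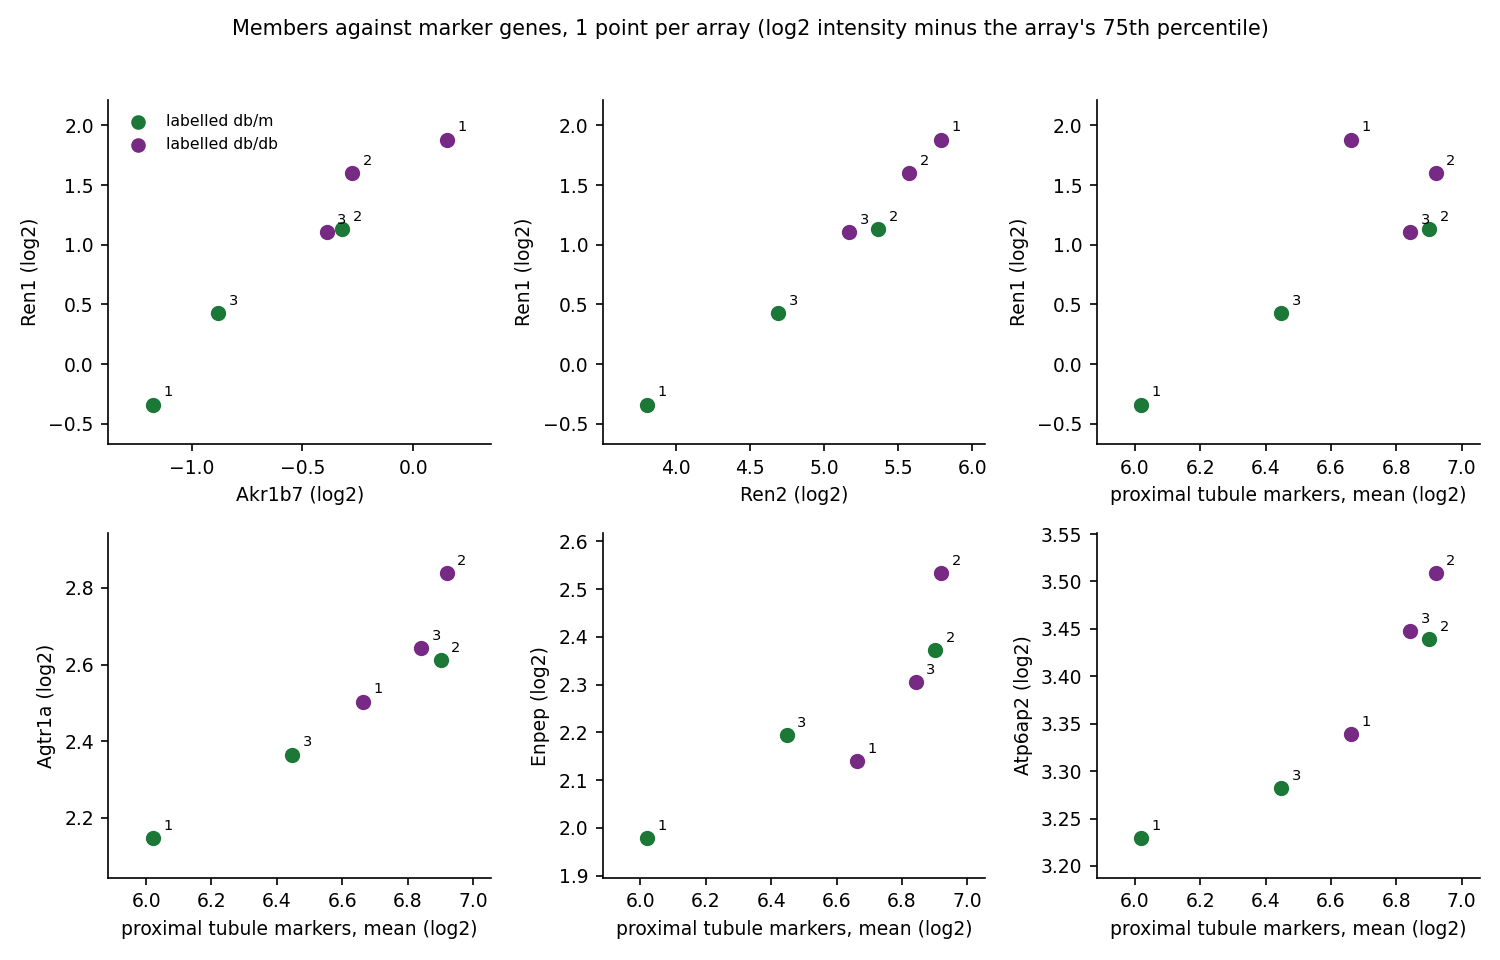
Members (y axes) against marker genes (x axes), 1 point per array with its replicate number, all as log2 intensity minus the 75th percentile of the array, green for labelled db/m and purple for labelled db/db. The upper row sets Ren1 against Akr1b7, the Ren2 probe and the mean of the proximal tubule markers, and the lower row sets Agtr1a, Enpep and Atp6ap2 against that mean, where labelled db/m replicates 1 and 3 lie lowest on the x axis.

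Other angiotensin-processing peptidases, receptors and receptor-bound proteins formed a list of 16 genes, of which 12 were tested. Of these, 2 were lower and 1 was higher at an unadjusted p under 0.05, against 9.43% and 6.19% of all genes. The median was -0.20 against -0.035 over all genes. On the proximal tubule scale it was 0.15, against 0.32 over all probes. Prcp, a carboxypeptidase that shortens angiotensin II, differed by -0.29 (SE 0.10, adjusted p = 0.245 by limma). On the proximal tubule scale it differed by 0.061, also below the median of all probes there. Dpp3, which degrades angiotensin II, differed by -0.36 (SE 0.13, adjusted p = 0.248 by limma). Cma1, the mast cell chymase that forms angiotensin II without the converting enzyme, read 0.79 higher (SE 0.25, adjusted p = 0.24 by limma). Its probe was above background on 2 of the 3 arrays labelled db/db and entered the test through labelled db/m alone, the group where it is high, so that its difference supports no count. Among probes above background on all 6 arrays the list held 0 higher and 2 lower by limma at that level, against 5.88% and 11.9% of all such probes. With slide as a block Cma1 differed by 0.36. Agtr2, Ctsg, Cpa3 and Mrgprd were not tested, being above background on at most 1 array.

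Genes that govern renin synthesis and release (16 tested of 18) held 1 that was higher and 0 that were lower at an unadjusted limma p under 0.05, with a median of 0.094. The share of 1 in 16 is near the 6.19% of all genes that were higher. Creb1, a transcription factor of the cyclic AMP pathway that drives renin, read 0.38, 0.40 and 0.35 in labelled db/m and -0.0055, 0.18 and 0.11 in labelled db/db (difference 0.28, SE 0.10, adjusted p = 0.254 by limma). Ptgs2, the cyclooxygenase of the macula densa, was above background on 2 arrays and was not tested. The median of this list was -0.093 with median centring and 0.45 on the proximal tubule scale, beside -0.21 and 0.32 over all probes there.

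Signalling proteins downstream of the AT1 receptor (17 tested of 17) held 4 that were lower and 1 that was higher at an unadjusted p under 0.05, against 9.43% and 6.19% of all genes, and their median of -0.034 was close to that of all genes. The 4 were Jak2 (-0.48, SE 0.14), Rock2 (-0.41, SE 0.15), Gna12 (-0.42, SE 0.15) and Nox4 (-0.53, SE 0.20). With slide as a block they differed by -0.15, -0.21, -0.63 and -0.93, and they had an unadjusted p under 0.05 in 16, 10, 11 and 8 of 18 alternative settings. Jak2 and Rock2 are kinases that the receptor engages, Gna12 is a G protein subunit and Nox4 is the renal NADPH oxidase. Cybb, the NADPH oxidase of phagocytes, read 0.46 higher (SE 0.18). It too entered the test through labelled db/m alone, with 2 of the 3 arrays labelled db/db above background, and passed in 5 of 17 settings. Among probes above background on all 6 arrays the list held 0 higher and 4 lower by limma at that level, against 5.88% and 11.9% of all such probes. The median was 0.074 with quantile normalization and 0.32 on the proximal tubule scale, beside 0.32 over all probes there.

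Angiotensin II also releases aldosterone, and the mineralocorticoid receptor with its distal nephron targets formed a list of 11 genes, all tested. Of these 3 were lower at an unadjusted p under 0.05 and 0 were higher by limma, against 9.43% and 6.19% of all genes (median -0.088, and 0.044 with quantile normalization). Slc12a3, the thiazide-sensitive sodium chloride cotransporter, read 2.40, 2.67 and 2.16 in labelled db/m and 3.25, 3.42 and 3.29 in labelled db/db. All mice labelled db/m were below all those labelled db/db, with a difference of -0.91 (SE 0.15, adjusted p = 0.24 by limma) that had an unadjusted p under 0.05 in 17 of 18 alternative settings. Sgk1, the aldosterone-induced kinase, differed by -0.48 (SE 0.19, adjusted p = 0.271 by limma) and passed in 7 of the 18 settings. Hsd11b2, which shields the receptor from glucocorticoids, differed by -0.41 (SE 0.17, adjusted p = 0.279 by limma), and by 0.0455 with slide as a block. The receptor itself, Nr3c2, differed by -0.085 (SE 0.13).

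Markers of other cells of the cortex were measured beside these genes. Of the 5 mesangial markers listed, 4 were matched by gene symbol to a tested probe, and all 4 were higher in labelled db/m. Serpine2 (0.50, SE 0.13) and Gata3 (0.39, SE 0.16) had an unadjusted limma p under 0.05, a level at which 6.19% of all genes were higher. The other marker, Sept4, was above background on all 6 arrays and so met the filter. It was missed when the list was matched by gene symbol. Its difference was not read out, so the count of 4 leaves out a marker of unknown direction. Serpine2 passed in 17 and Gata3 in 8 of 18 alternative settings. The mean of the 4 matched mesangial markers was 1.77 to 2.25 in labelled db/m and 1.52 to 1.70 in labelled db/db. Its r over the 6 arrays was lowest with Ace (-0.97). With Ren1, Atp6ap2, Agtr1a and Mas1 it was -0.78, -0.65, -0.64 and -0.58. With Enpep and Agt it was -0.38 and -0.30, and with Mme 0.65. These r are a description in which the points share their groups, slides and scale. Endothelial markers (8) and podocyte markers (6) had none at that level, with medians of 0.12 and -0.10. The podocyte median was -0.51 with slide as a block, -0.35 when labelled db/m lacked replicate 2 and 0.22 when it lacked replicate 1. The urothelial keratin Krt5 was higher (1.53, SE 0.56) and the steroid enzyme Hsd3b1 was lower (-0.69, SE 0.23) in labelled db/m. Both had an unadjusted limma p under 0.05. The groups overlapped for Krt5, which differed by 1.49 with slide as a block (unadjusted limma p over 0.05). The other urothelial marker tested, Upk1a, differed by 0.73 (SE 0.93), and Upk1b, Upk2 and Upk3a were not tested. Hsd3b1 differed by -0.20 with slide as a block, and of the other adrenal markers tested Star differed by -0.22 (SE 0.12) and Cyp21a1 by 0.28 (SE 0.29). The part of these cells in the members' differences was not tested.

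Between 51.6% and 59.0% of the probes were well above background on an array, and the median intensity ranged from 76.01 to 112.0. Pearson's r over probes was 0.9816 to 0.9931 within the groups and 0.9807 to 0.9917 between them. No probe was saturated on any array.

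**Figure D5:**
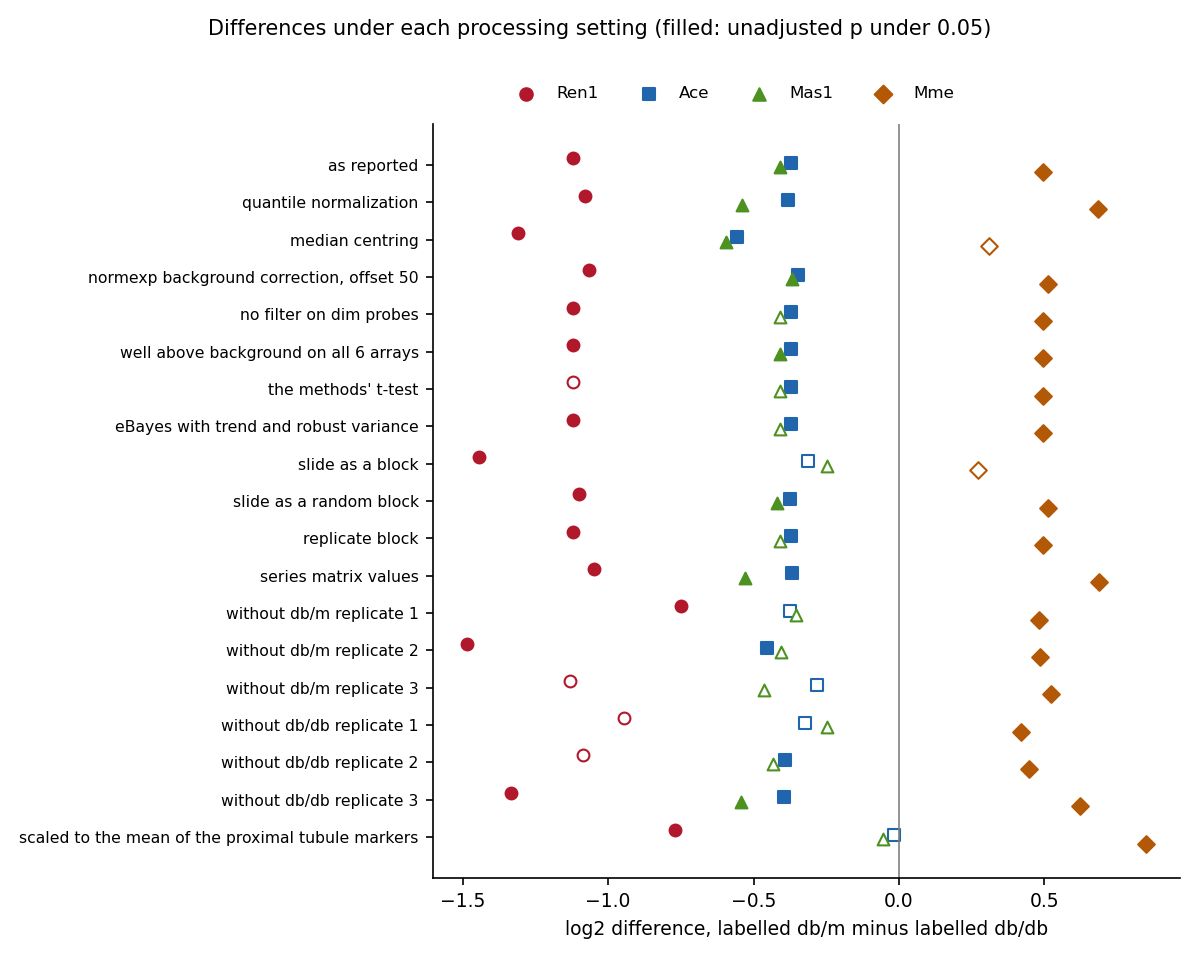
Difference of Ren1, Ace, Mas1 and the brightest Mme probe (x axis, log2, labelled db/m minus labelled db/db) as reported and under each of 18 alternative settings (y axis), filled where the unadjusted p was under 0.05. Ren1 runs from -1.48 to -0.75 and Mme from 0.27 to 0.85, and neither crosses 0, while Ace and Mas1 come close to 0 on the proximal tubule scale. That scale moves the difference of every probe by the same amount.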

How the data were processed

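Total RNA of renal cortex was labelled with Cy3 and hybridised to one-colour Agilent mouse arrays, 1 mouse per array. For each array the authors deposited a scanner file of background-subtracted intensity per spot from Agilent Feature Extraction 10.7.1.1 with no normalization between arrays, and for the series a matrix of log2 values that tracked them (r 0.99833 to 0.99996). Intensity values of labelled db/m replicate 1 were written to 3 significant digits, and 71 gene names in that file differed and were taken from the other files. From the intensities, control spots and 135 probes with outlier flags were left out, spots of a probe were averaged, and each array's 75th percentile was subtracted from its log2 values. Groups were compared with limma 3.58.1 (lmFit, eBayes) in R 4.3.3, over 29890 probes and with Benjamini-Hochberg adjustment over all of them. No array test is named in the paper. Its statistics section names analysis of variance, whose form for 2 groups is called the methods' t-test. On simulated data for this comparison (29890 probes, 200 changed), 84.1% of 4-fold and 44.1% of 2-fold changes passed the adjusted threshold, with 7 unchanged probes. The simulated noise was independent between probes, drawn from each probe's own SD, with no slide or array-wide effect. These shares may therefore not hold for the real arrays. Gene symbols of 32994 probes came from RefSeq by accession and the others from the files. All columns used were those of the 6 samples.

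The members and gene lists were chosen with earlier results of these data known. Named were every member with its probes, genes of the other lists with an unadjusted p under 0.05, and the 3 probes most like Ren1 and Agt. Ren2, Oxsm, Ptgs2 and Nr3c2 were named after their values were seen. The number of arrays limits the precision. Alternatives were the normalization, background correction, filter, test, slide, replicate number and each array left out, and, chosen after seeing the data, the proximal tubule scale.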

Additional observations from a re-analysis of the deposited data

How the results depend on the processing

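The limits are 3 mice a group, slides that separate the groups except on the first, and labels that differ from the paper. Over 18 alternative settings, Ren1, Ace and Mas1 stayed lower and the brightest Mme probe higher in labelled db/m. The Mme probes A_65_P20281 and A_66_P113268 were lower as reported (-0.077 and -0.051) and higher with slide as a block (0.36 and 0.43). The Mme probe A_55_P2731961 was higher in both (0.25 and 0.58). Ren1 ran from -1.48 to -0.75, with an unadjusted p under 0.05 in 14 settings. That p was over 0.05 by the methods' t-test and without replicate 3 of labelled db/m or replicate 1 or 2 of labelled db/db. The brightest Mme probe passed in 16, Ace in 13 and Mas1 in 7. The lowest adjusted p of any of the 8 members under any setting was 0.0813, for Mme without labelled db/db replicate 3. The cause of the changes below was not tested.

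The count of members lower at an unadjusted p under 0.05 was 3 as reported, 1 by the methods' t-test, 1 with slide as a block and 1 on the proximal tubule scale, and 0 to 3 with an array left out (0 when labelled db/m lacked replicate 3 or labelled db/db its replicate 1, and 1 when labelled db/m lacked replicate 1 or labelled db/db its replicate 2). The share of all probes lower at that level was 10.8% as reported, 11.2% by the t-test, 5.16% with slide as a block and 0.174% on the proximal tubule scale. With an array left out it ran from 4.06% (labelled db/m without replicate 3) to 13.7% (labelled db/m without replicate 2). The count of members higher was 1 as reported and 0 with median centring, with slide as a block and with the mean over all tested probes of a gene. Over all probes the share higher was 6.9% as reported, 3.02% with median centring and 4.55% with slide as a block. On the proximal tubule scale, where the count stayed 1, that share was 14.2%. The members' median of -0.22 became -0.40 with median centring, which moved the median of all probes from -0.027 to -0.21, and 0.14 on the proximal tubule scale, which moved it to 0.32. With an array left out the median kept its direction and reached -0.32 without labelled db/m replicate 2. Agt turned to 0.41 with slide as a block, 0.0115 without labelled db/m replicate 3 (and was -0.33 at the lowest, without replicate 1 of that group), and 0.23 on the proximal tubule scale. On that scale, which moves the difference of every probe by the same amount, Agtr1a turned to 0.0645, Enpep to 0.21 and Atp6ap2 to 0.24. All of 29890 probes held 0 calls at an adjusted p under 0.05 as reported, 59 when replicate 2 of labelled db/m was left out, 123 when it was replicate 3 of labelled db/db, and 17 on the proximal tubule scale, by limma.

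The deviations of mice with the same replicate number had r of 0.35, 0.15 and 0.046 for numbers 1, 2 and 3. Between different numbers r ran from -0.34 to 0.15. Whether the numbers pair the mice was not tested. With the replicate number as a block, Ren1 differed by -1.12 (adjusted p = 0.219 by limma). The members' counts stayed 3 and 1 with a median of -0.22, beside 13.6% lower and 8.35% higher over all probes. Mas1 lost its unadjusted p under 0.05 and Agtr1a gained one.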
